A study of Mus musculus with 12 samples.

Results

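Peroxisome proliferator-activated receptors (PPARs) are nuclear receptors that sense fatty acids and switch on genes of lipid handling. They bind DNA together with a retinoid X receptor (RXR), and PGC1 proteins are coactivators that dock on them and on other receptors. PPARα drives fatty acid oxidation in fasted hepatocytes, PPARγ drives fat storage in adipocytes, and PPARδ is made in most tissues. The 8 genes of this system were chosen by symbol from the 55357 genes of the count table. They were the receptors Ppara, Ppard and Pparg, the partners Rxra, Rxrb and Rxrg, and the coactivators Ppargc1a and Ppargc1b. All 8 were in the table and all 8 passed edgeR's filter on low counts, which left 17358 genes for testing.

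Liver RNA of male C57BL/6J mice gave 12 libraries in a design of 2 genotypes and 2 diets. All carried floxed Ppara alleles (Ppara fl/fl), and mice without Cre are called WT. In KO mice an Albumin-Cre transgene, active in hepatocytes, deleted Ppara there, while other liver cells kept the gene. Diets ran for 6 weeks, to an age of 13 weeks, as chow or as CDAHFD, a high-fat diet made from defined L-amino acids that lacks choline. The groups were WT chow (n = 4), WT CDAHFD (n = 3), KO chow (n = 2) and KO CDAHFD (n = 3). The study's methods state an equal number per group, and the difference was not resolved here.

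Total counts per library ran from 29906785 to 43551003. Levels are CPM, counts scaled to each library's TMM size. Each gene was tested by edgeR's quasi-likelihood method, p-values were adjusted by Benjamini-Hochberg across all 17358 genes, and a gene was called at an adjusted p under 0.05. Hepatocyte markers were abundant in all libraries, at summed levels of 83100 to 105000 CPM in WT chow, 43100 to 53100 in WT CDAHFD, 72300 to 83300 in KO chow and 41300 to 56200 in KO CDAHFD. Of 7 hepatocyte markers, 5 were lower in KO chow and 7 in WT CDAHFD than in WT chow. Beside these and the marker counts that follow, 17.0% of all genes tested were lower and 22.0% higher in KO chow. In WT CDAHFD, 25.0% of all genes were lower and 26.1% higher. Kupffer cell and macrophage markers summed to 312 to 576 CPM in WT chow and to 1180 to 2840 CPM across WT CDAHFD and KO chow, with 7 of 8 higher in each comparison. In WT CDAHFD the largest were Lyz2 at 985 and Gpnmb at 712 CPM, from 84.1 and 0.249 CPM in WT chow. The Kupffer cell marker Clec4f was not higher there, with a mean of 96.8 CPM beside 142.7 in WT chow, and it had 224.8 CPM in KO chow. Stellate cell markers summed to 104 to 192 CPM in WT chow, and their sums were 1010 to 1050 CPM in WT CDAHFD and 827 to 913 CPM in KO chow, with 4 of 7 higher in each. The collagen genes Col3a1 and Col1a1 made up most of the WT CDAHFD sum, at 571 and 245 CPM, from 30.65 and 8.485 CPM in WT chow. Reln, the next largest there, had 110.2 CPM, from 52.2 CPM. Cholangiocyte markers went from 46.0 to 79.4 CPM in WT chow up to 165 to 288 in KO chow and 358 to 578 in WT CDAHFD, with 4 and 5 of 5 higher. Most of each cholangiocyte sum was Spp1, at mean levels of 47.33 (WT chow), 195.8 (KO chow) and 424.0 CPM (WT CDAHFD). Sox9, the next largest, averaged 9.847, 15.51 and 24.37 CPM in the same order. Which cell type made the Spp1 RNA was not tested. Of 6 endothelial markers, 4 were lower in WT CDAHFD and none was called in KO chow, and of 5 lymphocyte markers 2 were higher in each. In bulk tissue, fewer cells of a type and less RNA per cell cannot be told apart, and the part of cell makeup in the results below was not tested. Library sizes scaled by TMM differed from totals by factors of 0.7292 to 0.8268 in WT chow and of 1.026 or more elsewhere. Leaving this scaling out moved the median over all genes, as a log2 fold change against WT chow, by 0.40 in KO chow and 0.56 in WT CDAHFD, and raised the share of calls that were higher from 56.4% to 86.0% and from 51.0% to 88.6%.

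The recognition helix of the first zinc finger, which reads the DNA half-site, is encoded by a short conserved run in all 6 receptors. It is shown because the forward primer of the study's Ppara qPCR lies on it, so that the stretch places that assay on the gene and shows how far the family differs there. Each line gives 20 bases from the GENCODE M21 transcripts, 5′ to 3′, with capitals for bases that differ from Ppara.
Ppara: ctgtaagggcttctttcggc
Ppard: GtgCaagggcttcttCcgCc
Pparg: AtgCaagggTttTttCcgAA
Rxra: ctgCaagggcttcttCAAgA
Rxrb: ctgCaagggTttcttCAAgc
Rxrg: TtgCaaAggcttcttCAAAA
Ppard differed from Ppara at 4 of the 20 bases, Rxra and Rxrb at 5, Pparg at 7 and Rxrg at 8. Counted from 1 at the 5′ end of the Ppara run, T4C and T16C were shared by the 5 other receptors, and C17A with G18A by the 3 RXRs alone. In the PPARs the run crossed a splice junction after its base 7, from exon 4 to exon 5, and in the RXRs it lay within exon 4. On GRCm38 the Ppara run covers chr15:85787262-85787268 and chr15:85788979-85788991, plus strand, in coding sequence of transcript Ppara-202. The reverse primer, agtactggcatttgttccggt, matches the minus strand of exon 5 at chr15:85789055-85789075, so the product of 104 bases spans the junction and is present in all 3 protein-coding Ppara transcripts. The counts analysed here sum reads over the whole gene, from chr15:85734983 to 85802819. The deleted exons are not given in the sources used here, so reads from the rest of the locus were not separated.

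Ppara checks the genotype and came first. Its levels in WT chow replicates 1 to 4 were 120.1, 96.2, 238 and 226 CPM. On CDAHFD, the WT replicates had 59.5, 75.5 and 73.5 CPM. KO chow had 14.4 and 38.7 CPM and KO CDAHFD 36.3, 20.7 and 51.9 CPM. Every KO library lay below every WT library, so the levels did not go against a genotype label, but no KO library was empty, with 530 to 2183 counts each. Within WT chow, replicates 3 and 4 stood well above replicates 1 and 2.

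Pparg ran the other way. It had 4.50, 2.77, 8.14 and 5.46 CPM in WT chow. The WT CDAHFD libraries had 27.5, 24.9 and 25.2 CPM, KO chow 21.5 and 22.6 CPM, and KO CDAHFD 26.5, 23.6 and 27.6 CPM. All 8 libraries outside WT chow fell in a narrow band above the WT chow range. Its gene spans chr6:115360951-115490399.

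Ppard (chr17:28232700-28301474) had 75.5, 47.8, 7.77 and 9.04 CPM in WT chow, a spread of 9.72-fold from the lowest to the highest library of 1 group. It had 12.7, 16.9 and 14.6 CPM in WT CDAHFD, 22.5 and 9.75 CPM in KO chow, and 18.6, 17.4 and 11.8 CPM in KO CDAHFD. WT chow replicates 1 and 2 lay above all other libraries and replicates 3 and 4 below all others, so the WT chow range enclosed the other groups.

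Among the partners, Rxra (chr2:27676440-27762957), the main RXR of hepatocytes, had 669, 544, 770.2 and 811 CPM in WT chow. It had 421, 359 and 398 CPM in WT CDAHFD, 304 and 395 CPM in KO chow, and 368, 328 and 403 CPM in KO CDAHFD. No library of the other groups reached the WT chow range.

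Rxrb (chr17:34031812-34038399), a partner made in most tissues, had 45.3, 45.2, 59.2 and 51.2 CPM in WT chow and 37.1 to 45.1 CPM in the other 8 libraries. Rxrg (chr1:167598384-167639623), best known from muscle and brain, had 3.53, 7.995, 5.97 and 3.26 CPM in WT chow and 4.32 to 7.99 CPM elsewhere. Rxrb was a little higher in WT chow without overlap, and the Rxrg ranges overlapped.

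Both coactivators were sparse. Ppargc1a (chr5:51454250-51567726), a coactivator of mitochondrial genes and of gluconeogenesis, had 6.02, 9.35, 9.10 and 11.1 CPM in WT chow and 5.60 to 12.8 CPM in the other libraries. Ppargc1b (chr18:61298136-61400431), its relative, had 1.51, 4.66, 10.3 and 5.78 CPM in WT chow and 1.33 to 5.07 CPM elsewhere, from 39 to 309 counts. Their ranges overlapped between WT chow and each other group. Genes that overlap the 8 loci shared no exon with them and held at most 0.346% of a member's counts.

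**Figure D1:**
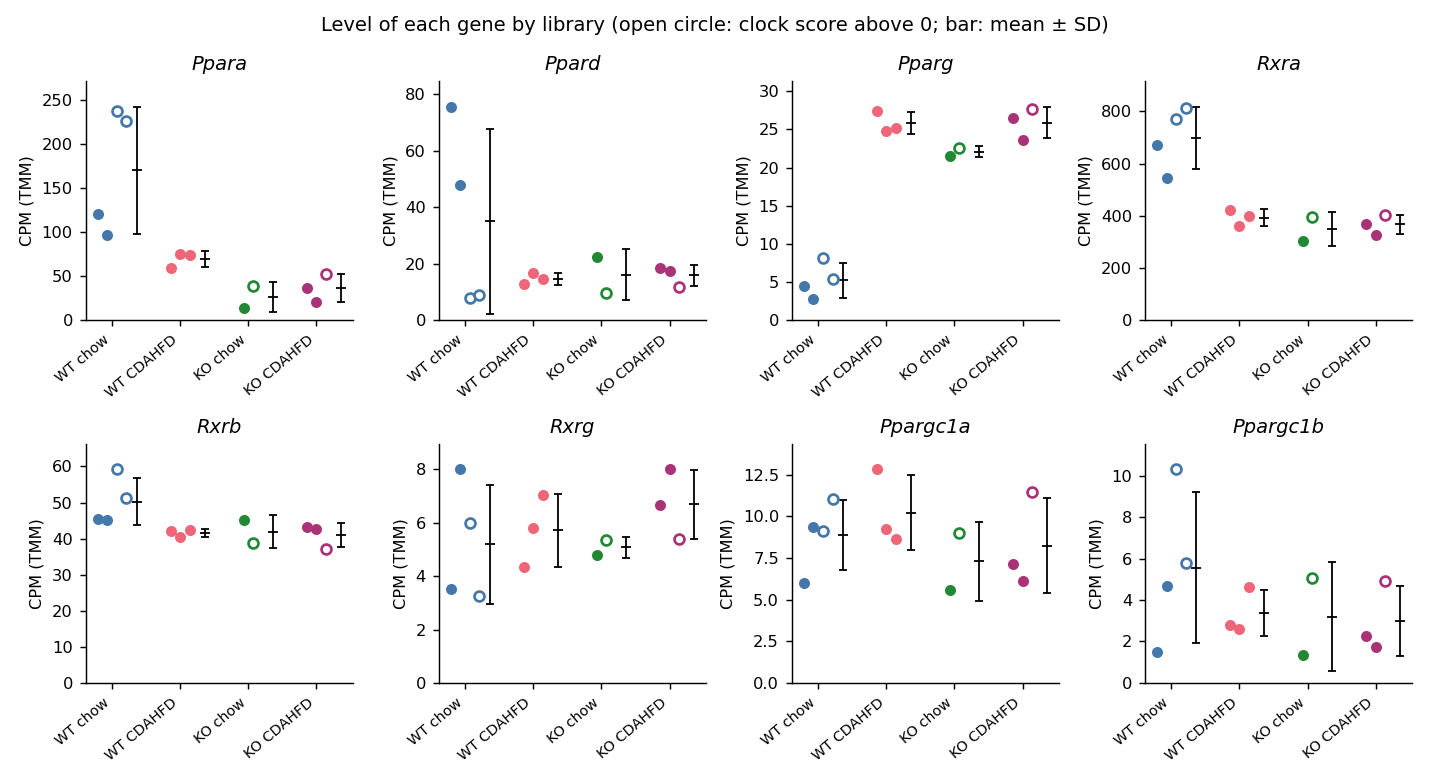
Level of each of the 8 genes in CPM (y axis, from 0, TMM library sizes) by group (x axis). Each circle is 1 library, open where its clock score is above 0, and the black bar gives the mean ± SD. All Pparg values of WT chow, up to 8.14 CPM, lie below the other groups, and all Ppara values of KO mice, up to 51.9 CPM, lie below the WT groups.

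Divided by the length of the annotated exons, the levels can be set beside each other. In WT chow Rxra led with 128 ± 21.8 CPM per kb (SD, n = 4), followed by Ppara with 44.3 ± 18.8 and Rxrb with 12.6 ± 1.66, and these neighbours did not overlap. The 5 lower genes, from Ppard at 4.66 ± 4.36 to Ppargc1a at 1.35 ± 0.318 CPM per kb, overlapped with their neighbours in that order.

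In WT CDAHFD the order of the first 3 was the same, with Rxra at 71.9 ± 5.76, Ppara at 18.1 ± 2.28 and Rxrb at 10.5 ± 0.274 CPM per kb (SD, n = 3). Pparg came next at 8.75 ± 0.475 CPM per kb, clear of Rxrb above it and of Rxrg below it. In KO CDAHFD, Rxrb at 10.3 ± 0.844, Ppara at 9.47 ± 4.07 and Pparg at 8.77 ± 0.706 CPM per kb could not be ordered beyond their spread. In KO chow, Pparg at 7.47 ± 0.249 and Ppara at 6.92 ± 4.47 CPM per kb (SD, n = 2) overlapped too.

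The makeup of the PPAR family shifted accordingly. Ppara made up 73.0, 77.5, 94.2 and 95.1% of the PPAR sum per kb in WT chow, 58.5, 64.9 and 64.6% in WT CDAHFD, 26.7 and 53.0% in KO chow, and 45.2, 34.4 and 55.4% in KO CDAHFD. Pparg made up 2.90 to 4.19% in WT chow, 27.7 to 35.1% in WT CDAHFD, 40.2 to 51.9% in KO chow and 38.2 to 50.9% in KO CDAHFD. Only in WT chow was Pparg the smallest share in some libraries, replicates 1 and 2, while Ppard was the smallest in the other 10. Per length, the Ppara to Pparg ratio was 20.5 to 31.9 in WT chow, 1.67 to 2.34 in WT CDAHFD, 0.515 and 1.32 in KO chow, and 0.676 to 1.45 in KO CDAHFD. The ratio did not overlap between the WT groups or between WT and KO, although Ppara itself varied by 2.47-fold within WT chow.

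The summed PPAR level was 50.8 ± 15.8 CPM per kb in WT chow (SD, n = 4), 28.8 ± 2.06 in WT CDAHFD (SD, n = 3), 16.5 ± 3.51 in KO chow (SD, n = 2) and 20.4 ± 4.40 in KO CDAHFD (SD, n = 3). RXR sums were larger in each group, at 143 ± 22.4, 84.9 ± 5.79, 76.8 ± 10.8 and 80.3 ± 5.69 CPM per kb in the same order. Rxra stayed dominant among RXRs, at 87.0 to 91.2% of the sum in WT chow and 80.6 to 86.3% in the other libraries. The ratio of Rxra to Ppara per length was 2.28 to 3.97 in WT chow, 3.34 to 4.97 in WT CDAHFD, 7.18 and 14.8 in KO chow and 5.46 to 11.1 in KO CDAHFD. Of the PGC1 sum, Ppargc1a held 34.8 to 73.4% over all libraries, with overlapping group ranges. These shares and ratios are descriptions without a test.

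**Figure D2:**
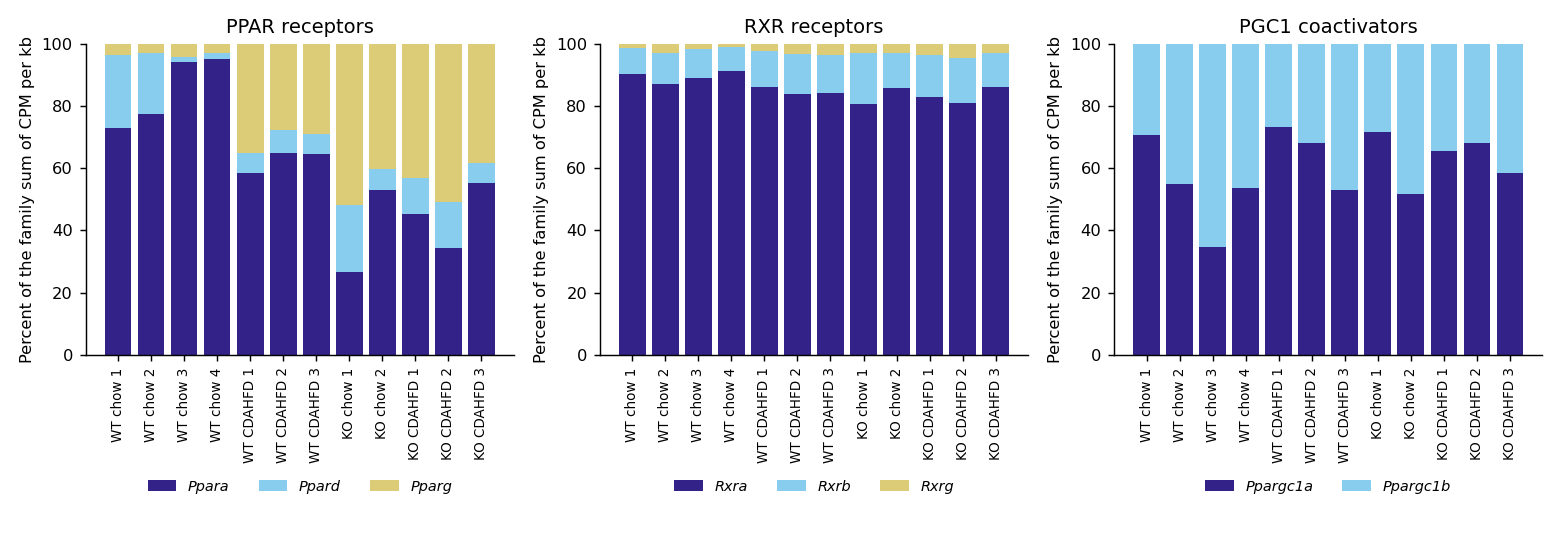
Share of each gene in the summed level per kb of its family, in percent (y axis), for each library (x axis), with 1 panel each for PPARs, RXRs and PGC1 coactivators. The Pparg share lies between 2.90 and 4.19% in the 4 WT chow libraries and between 27.7 and 51.9% in the other 8, while Rxra holds at least 80.6% of the RXR sum throughout.

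The effect of the knockout on chow was the first comparison. Of the 8 genes, 2 were lower and 1 was higher in KO chow than in WT chow, beside 17.0% of all genes lower and 22.0% higher. Ppara fell by 2.68 on the log2 scale (SE 0.50, adjusted p = 0.00111), from 170.1 ± 72.3 CPM (SD, n = 4) to 26.5 ± 17.1 CPM (SD, n = 2). Rxra was at -1.0 on that scale (SE 0.18, adjusted p = 7.12e-04), from 699 ± 119 to 349.8 ± 64.4 CPM. Pparg rose by 2.08 (SE 0.27, adjusted p = 5.89e-05), from 5.22 ± 2.24 to 22.1 ± 0.736 CPM. The other 5 did not pass, Ppard being at -1.12 (SE 0.75, adjusted p = 0.257), Rxrb at -0.26 (SE 0.13, adjusted p = 0.133) and Ppargc1b at -0.79 (SE 0.66, adjusted p = 0.370). Rxrg, at -0.04 (SE 0.33, adjusted p = 0.935), was closest to 0, and Ppargc1a was at -0.28 (SE 0.30, adjusted p = 0.494).

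The 3 calls held in each of the 12 fits that left out 1 library, with Ppara between -3.56 and -2.12, Rxra between -1.20 and -0.80 and Pparg between 1.88 and 2.40. The ends of the Ppara and Rxra ranges came without KO chow replicate 2 and without replicate 1. With library size as the only scaling, the signs of Rxrb, Rxrg and Ppargc1a, none of them called, turned.

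Diet in WT liver was compared next, with the same WT chow libraries as controls. Again 2 of the 8 were lower and 1 was higher in WT CDAHFD, beside 25.0% of all genes lower and 26.1% higher. Pparg rose by 2.31 on the log2 scale (SE 0.25, adjusted p = 7.23e-06), to 25.9 ± 1.40 CPM (SD, n = 3). Rxra fell by 0.83 (SE 0.15, adjusted p = 5.93e-04), to 393 ± 31.4 CPM. Ppara fell by 1.29 (SE 0.40, adjusted p = 0.0163), to 69.5 ± 8.75 CPM. Ppara was not called without WT chow replicate 3 (adjusted p = 0.0508) or without WT CDAHFD replicate 1 (adjusted p = 0.0644).

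Of the genes that did not pass on the diet, Ppard stood at -1.25 on the log2 scale (SE 0.65, adjusted p = 0.124), Rxrb at -0.27 (SE 0.11, adjusted p = 0.0651) and Ppargc1b at -0.74 (SE 0.57, adjusted p = 0.305). Rxrg at 0.13 (SE 0.29, adjusted p = 0.732) and Ppargc1a at 0.20 (SE 0.26, adjusted p = 0.542) lay near 0. Ppard was called without WT chow replicate 3 (-1.57, adjusted p = 0.0353) or without replicate 4 (adjusted p = 0.0457), and also over all 12 libraries with no filter (-1.21, adjusted p = 0.0192). Rxrb was called without WT chow replicate 1 (-0.29, adjusted p = 0.0451). With library size alone, the Ppara and Rxra decreases shrank to -0.71 (adjusted p = 0.140) and -0.27 (adjusted p = 0.128) and were not called. In that setting Rxrb, at 0.29 (adjusted p = 0.0313), turned and Ppargc1a, at 0.77 (adjusted p = 0.0235), grew, and both were called higher, while Pparg stayed called at 2.87.

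**Figure D3:**
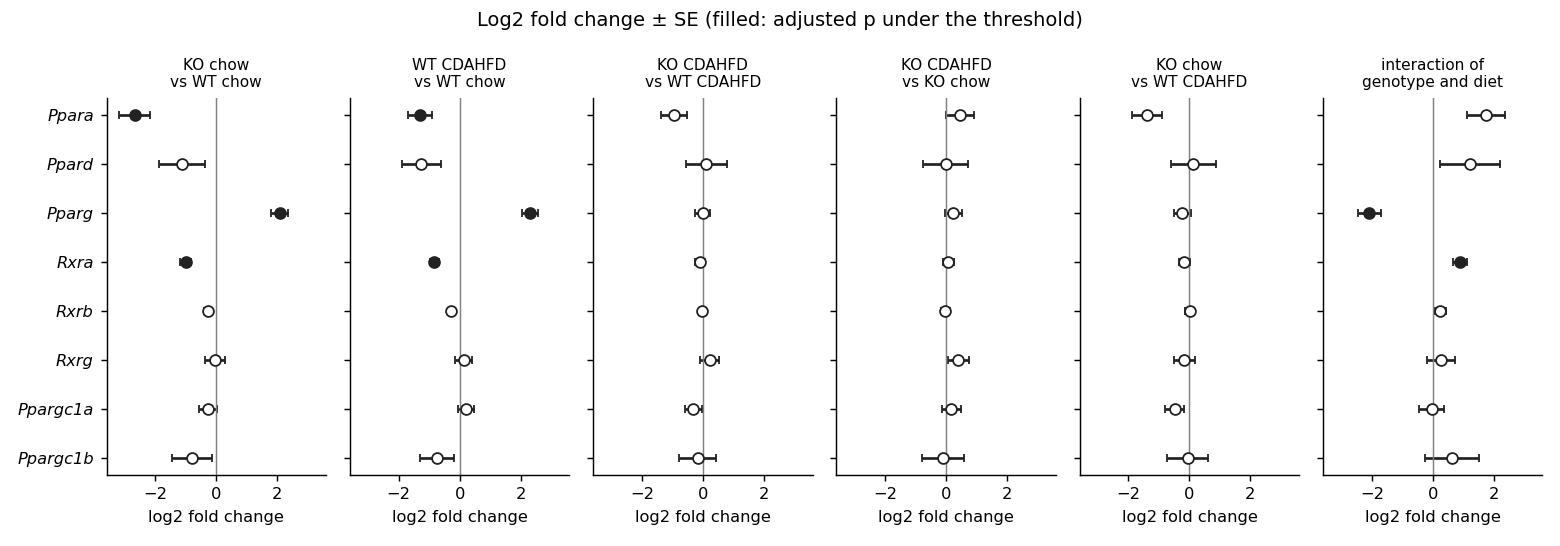
Log2 fold change ± SE (x axis) of each gene (y axis) in 6 contrasts, 1 panel each, with filled circles where the adjusted p is under 0.05. Ppara, Pparg and Rxra are filled in both comparisons with WT chow, none in the 3 comparisons among the other groups, and Pparg (-2.08) and Rxra (0.90) in the interaction.

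Among the 3 groups other than WT chow, none of the 8 genes was called by the main edgeR fit described above. In KO CDAHFD against WT CDAHFD, where 0.271% of all genes were lower and 0.0864% higher, log2 fold changes of the 8 ran from -0.94 to 0.23, and 1 had an unadjusted p under 0.05. That was Ppara, at -0.94 (SE 0.42, unadjusted p = 0.0432, adjusted p = 0.547), with no overlap between the groups, and DESeq2 called none. In KO CDAHFD against KO chow, where 2.44% of all genes were lower and 3.76% higher, the 8 ran from -0.11 to 0.45, none had an unadjusted p under 0.05 and DESeq2 called none. Ppara was at 0.45 there (SE 0.47, adjusted p = 0.617), and at -0.06 without KO chow replicate 1. Between KO chow and WT CDAHFD, where 3.42% of all genes were lower and 2.71% higher, the 8 ran from -1.39 to 0.13, and 1 had an unadjusted p under 0.05. Ppara again was that gene, at -1.39 (SE 0.49, adjusted p = 0.107), and DESeq2 called it at -1.42 (adjusted p = 0.0227). So did edgeR with no filter (-1.4, adjusted p = 0.00432) and with the compared groups alone (-1.4, adjusted p = 0.0434).

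Whether the diet acted differently in the 2 genotypes was tested as an interaction. It was called for 1 gene in each direction, beside 14.5% of all genes with a lower and 8.63% with a higher diet effect in KO mice. The diet effect on Pparg was lower by 2.08 on the log2 scale in KO than in WT mice (log2 difference -2.08, SE 0.37, adjusted p = 0.00142), with a log2 fold change of 0.23 in KO mice beside 2.31 in WT mice. For Rxra the difference was 0.90 (SE 0.23, adjusted p = 0.0152), with 0.07 beside -0.83. It was not called without KO chow replicate 1 (0.71, adjusted p = 0.0891) or with library size alone (0.55, adjusted p = 0.0907). For Ppara it was 1.74 (SE 0.62, adjusted p = 0.0605). It was called by DESeq2 (1.74, adjusted p = 0.0163), with no filter on low counts (1.7, adjusted p = 0.00209), and in 4 of 12 fits without 1 library, those without WT chow replicate 1 or 2 (adjusted p = 0.0461 and 0.0382), KO chow replicate 2 (0.0186) or KO CDAHFD replicate 2 (0.0365).

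For Ppara, Ppard, Pparg, Rxra and Ppargc1b, the order of libraries within groups went with clock genes, which set daily rhythms in liver. A clock score was computed as the mean log2 CPM of Dbp, Tef, Per3 and Ciart minus that of Arntl, Npas2, Clock and Nfil3. It was -5.385 and -5.216 in WT chow replicates 1 and 2 and 2.097 and 1.902 in replicates 3 and 4. It lay between -3.577 and -2.729 in WT CDAHFD, at -4.257 and 0.253 in KO chow, and at -3.142, -2.919 and 3.304 in KO CDAHFD. The 4 libraries above 0 were thus spread over 3 groups, and WT CDAHFD held none. The hour at which each mouse was sampled is not given in the sources used here.

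In each of the 3 groups with both kinds of library, Ppara was higher and Ppard lower in those above 0, without overlap. KO chow had 1 library of each kind, which cannot overlap, and KO CDAHFD had 1 above 0 and 2 below. How many of all genes separate in this way was not counted. In WT chow, Ppara had 226 and 238 CPM above 0 and 96.2 and 120.1 CPM below, while Ppard had 7.77 and 9.04 CPM above 0 and 47.8 and 75.5 CPM below. Pparg, Rxra and Ppargc1b were also higher in the libraries above 0 in all 3 groups without overlap, though Pparg was higher by small margins in the KO groups. Rxrb, Rxrg and Ppargc1a showed either no common direction or overlap.

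With the clock score as a covariate, Ppara was lower in KO CDAHFD than in WT CDAHFD by a log2 fold change of -1.38 (adjusted p = 0.0173) and in KO chow than in WT CDAHFD by -1.72 (adjusted p = 0.0025). Ppard then was lower in WT CDAHFD than in WT chow, at -1.18 (adjusted p = 0.00662). Against WT chow, Ppara in that fit was at -0.92 in WT CDAHFD (adjusted p = 0.00299), beside -1.29 without the score. In KO chow it was at -2.64 (adjusted p = 8.72e-06), beside -2.68. The Ppara interaction was 1.26 (adjusted p = 0.0144) with the score. In the 8 libraries with a score of 0 or less, a choice made after seeing the data that leaves KO chow with 1 library, assumed to vary like the others, Ppard was lower in WT CDAHFD by -2.06 (adjusted p = 2.98e-05) and in KO chow by -1.45 (adjusted p = 0.00373) than in WT chow. There the Ppara log2 fold change against WT chow was -0.64 in WT CDAHFD, smaller than the -1.29 over all libraries, and -2.91 in KO chow. Ppara was also lower in KO CDAHFD than in WT CDAHFD in these libraries, at -1.29 (adjusted p = 0.0463). The part of the hour of sampling in these results was not tested.

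**Figure D4:**
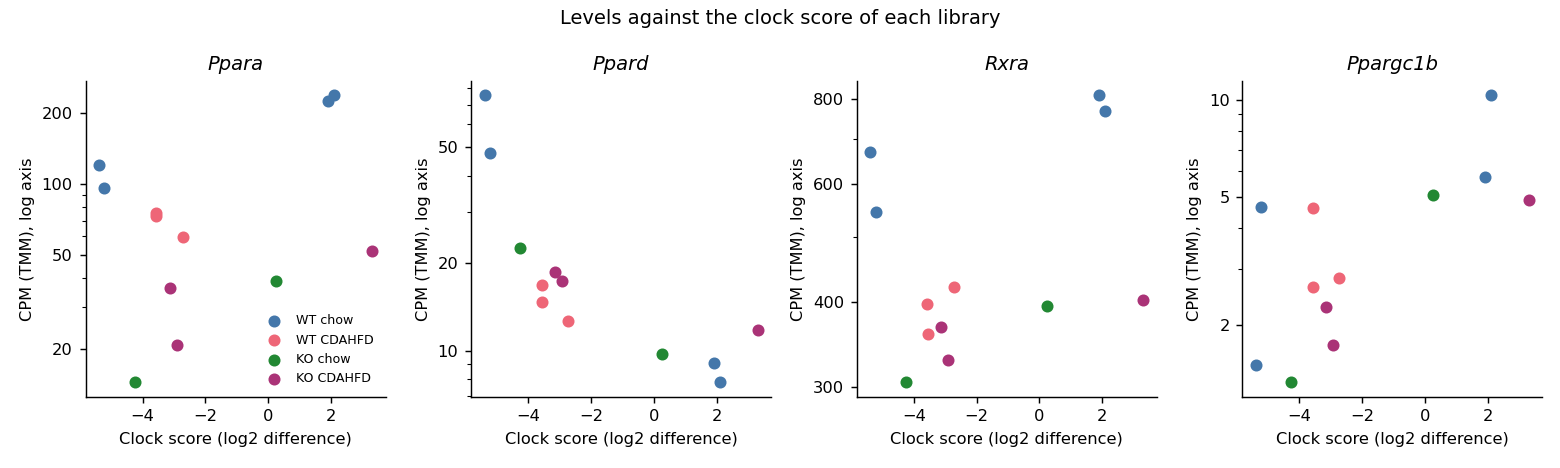
Level of Ppara, Ppard, Rxra and Ppargc1b in CPM (y axis, log scale) against the clock score of each library (x axis, a log2 difference), with 1 point per library coloured by group. Ppard runs from 7.77 CPM in a high-score to 75.5 CPM in a low-score WT chow library, and Ppara runs the opposite way within each group that has both kinds.

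Textbook targets of PPARα in mouse liver were looked at beside the receptor. Of 30 tested, 18 (60%, beside 17.0% of all genes) were lower and 3 (10%, beside 22.0%) higher in KO chow than in WT chow. The median log2 fold change was -0.92 beside 0.00 for all genes. In WT CDAHFD, 17 (56.7%, beside 25.0%) were lower and 3 (10%, beside 26.1%) higher, with a median of -0.53 beside -0.05. In KO CDAHFD against WT CDAHFD, 9 (30%, beside 0.271%) were lower and none higher, with a median of -0.62 beside 0.01. Ppara itself did not pass there in the main fit, but did with the clock score as a covariate (-1.38, adjusted p = 0.0173). How the count of 9 depends on the settings was not examined.

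The steepest decreases on both contrasts with WT chow included Retsat, a retinol saturase. It went from 414 ± 60.1 CPM in WT chow (SD, n = 4) to 101 ± 0.128 in KO chow (SD, n = 2), or -2.04 on the log2 scale (SE 0.15, adjusted p = 7.42e-07), and to 106 ± 9.86 in WT CDAHFD (SD, n = 3), at -1.97 (SE 0.13, adjusted p = 1.18e-07). Fabp1, the liver fatty acid binding protein, fell by 1.71 on the diet (SE 0.15, adjusted p = 1.45e-06), from 3470 to 1070 CPM. Vnn1, a pantetheinase, went in opposite directions, to 4.15 CPM in KO chow (-2.51, SE 0.36, adjusted p = 1.42e-04) and to 80.3 CPM in WT CDAHFD (1.77, SE 0.27, adjusted p = 1.43e-04) from 23.5 CPM in WT chow.

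The 3 higher targets in KO chow were Fgf21, a fasting hormone (2.73, SE 0.63, adjusted p = 0.00433), Acot1, an acyl-CoA thioesterase (2.44, SE 0.28, adjusted p = 2.32e-05), and Pdk4, a kinase that spares glucose (2.09, SE 0.61, adjusted p = 0.0165). Pdk4 was not called without KO chow replicate 1 (adjusted p = 0.0933), and reads of Acot1 can be shared with close paralogs. In WT CDAHFD the 3 were Vnn1, Fgf21 (2.86, SE 0.59, adjusted p = 0.00142) and Pdk4 (2.49, SE 0.57, adjusted p = 0.00286). With library size alone, 8 targets were lower and 8 higher in WT CDAHFD.

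Lipid storage genes that PPARγ drives in fat cells and fatty liver were looked at beside Pparg. Of 10, 7 were tested, and Cidea, Adipoq and Plin1 were too low. In KO chow 5 (71.4%, beside 22.0% of all genes) were higher and none lower, with a median log2 fold change of 2.31 beside 0.00 for all genes, and in WT CDAHFD 6 (85.7%, beside 26.1%) were higher and none lower, with a median of 3.03 beside -0.05. None was called between KO CDAHFD and WT CDAHFD, where the median was -0.39.

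Lpl, the lipase that takes up triglyceride fatty acids, rose from 24.5 ± 10.8 CPM in WT chow (SD, n = 4) to 248 ± 53.5 in KO chow (SD, n = 2), which is 3.34 on the log2 scale (SE 0.29, adjusted p = 2.61e-06), and to 521 ± 65.4 in WT CDAHFD (SD, n = 3), at 4.41 (SE 0.28, adjusted p = 1.18e-07). Aqp7, a glycerol channel, had 2 counts over the 4 WT chow libraries, against 136 over the KO chow and 459 over the WT CDAHFD libraries, ratios of 95.3 (exact 95% interval for counting error 25.9 to 795) and 172 (47.3 to 1420). The fatty acid transporter Cd36 (2.7, SE 0.22, adjusted p = 1.61e-06), the droplet protein Cidec (2.31, SE 0.32, adjusted p = 1.10e-04) and the fatty acid binding protein Fabp4 (1.36, SE 0.21, adjusted p = 2.32e-04) made up the rest of the KO chow increases. The other tested genes were not called there, with the droplet protein Plin4 at 4.25 CPM in WT chow and 2.98 CPM in KO chow and the acyltransferase Mogat1 at 0.137 and 0.103 CPM. Of 5 adipocyte markers, Adipoq, Plin1, Lep and Cfd had at most 3 counts in any library, and the 5 summed to at most 0.107 CPM.

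Coregulators that PPAR-RXR dimers bind, came next, other than the PGC1 genes. Of 16 tested, 7 (43.8%, beside 17.0% of all genes) were lower and none was higher (beside 22.0%) in KO chow, with a median of -0.43 beside 0.00. The steepest were Helz2, a helicase that coactivates PPARs (-0.73, SE 0.16, adjusted p = 0.0029), and the acetyltransferase Ncoa1 (-0.71, SE 0.19, adjusted p = 0.0115), and none of the 16 was lower without KO chow replicate 1 or with library size alone. In WT CDAHFD 1 was higher (6.25%, beside 26.1%) and 2 were lower (12.5%, beside 25.0%), with a median of -0.13 beside -0.05. The corepressor Nrip1 rose by 0.34 (SE 0.11, adjusted p = 0.0243), though leaving out WT chow replicate 4 (adjusted p = 0.0606) and leaving out WT CDAHFD replicate 3 (adjusted p = 0.119) each ended that call, and the Mediator subunit Med1 fell by 0.45 (SE 0.10, adjusted p = 0.00243). The deacetylase Sirt1 fell by 0.35 (SE 0.13, adjusted p = 0.0433) and was not called in 9 of 12 fits without 1 library. With library size alone, 9 coregulators were higher on the diet and the Med1 and Sirt1 values turned positive, to 0.11 and 0.22. In KO CDAHFD against WT CDAHFD, Nrip1 alone was called, at -0.64 (SE 0.12, adjusted p = 0.0467), and lost the call in each of 12 fits without 1 library (adjusted p = 0.0508 to 0.233).

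Of 13 other receptors that pair with RXR, 3 were higher (23.1%, beside 22.0% of all genes) and 4 lower (30.8%, beside 17.0%) in KO chow, with a median of -0.29 beside 0.00. In WT CDAHFD 3 were higher (23.1%, beside 26.1%) and 5 lower (38.5%, beside 25.0%), with a median of -0.13 beside -0.05. The shares of higher genes were thus near those of all genes. The thyroid hormone receptor Thrb fell in both, from 61.3 ± 5.24 CPM in WT chow (SD, n = 4) to 23.5 ± 7.08 in KO chow (SD, n = 2; -1.38, SE 0.17, adjusted p = 4.88e-05) and 24.5 ± 2.0 in WT CDAHFD (SD, n = 3; -1.32, SE 0.15, adjusted p = 1.12e-05). Nr1h4, the bile acid receptor, was at -1.10 in KO chow (SE 0.17, adjusted p = 2.57e-04) and at -1.30 in WT CDAHFD (SE 0.15, adjusted p = 1.17e-05). The xenobiotic receptor Nr1i3 was at -1.89 in KO chow (SE 0.31, adjusted p = 3.78e-04) and at -0.90 in WT CDAHFD (SE 0.25, adjusted p = 0.0091). Thra completed the KO chow decreases at -0.75 (SE 0.18, adjusted p = 0.00552), though not without KO chow replicate 1 (adjusted p = 0.098). Nr1i2 (-0.64, SE 0.12) and Nr1h3 (-0.56, SE 0.12) completed those on the diet.

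The 3 partners that were higher were the same in both comparisons. The immediate-early receptor Nr4a1 rose by 1.40 (SE 0.34, adjusted p = 0.00599) in KO chow and by 1.15 (SE 0.31, adjusted p = 0.00772) in WT CDAHFD, the latter not without WT CDAHFD replicate 2 (adjusted p = 0.0544). The retinoic acid receptor Rarg rose by 0.79 in KO chow (SE 0.17, adjusted p = 0.00304), and its increase in WT CDAHFD was 1.07 (SE 0.15, adjusted p = 8.68e-05). The vitamin D receptor Vdr had 2 counts over WT chow, against 26 in KO chow and 55 in WT CDAHFD, ratios of 18.2 (exact 95% interval 4.56 to 158) and 20.6 (5.43 to 174). None of the 13 was called between KO CDAHFD and WT CDAHFD.

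Of 13 partners and targets of the PGC1 coactivators, none was called higher. In KO chow 5 (38.5%, beside 17.0% of all genes) were lower, with a median of -0.43 beside 0.00, and in WT CDAHFD 10 (76.9%, beside 25.0%) were lower, with a median of -0.70 beside -0.05, while neither Ppargc1a nor Ppargc1b was called in either comparison. On the diet the gluconeogenic enzymes led, with G6pc at -2.24 (SE 0.60, adjusted p = 0.00783), from 1050 to 223 CPM, and Pck1 at -1.78 (SE 0.39, adjusted p = 0.0021), from 4140 to 1200 CPM. In KO chow the orphan receptor Esrrg went from 2.86 ± 0.795 CPM (SD, n = 4) to 0.0606 ± 0.0857 (SD, n = 2), with at most 5 counts in a KO chow library (-5.43, SE 0.65, adjusted p = 3.40e-05). The others lower in KO chow were the hepatocyte factor Hnf4a (-0.94, SE 0.26, adjusted p = 0.0133), Sod2 (-0.63, SE 0.10), Foxo1 (-0.61, SE 0.13) and Tfb2m (-0.34, SE 0.12, adjusted p = 0.0392). Hnf4a was not called without KO chow replicate 1 (adjusted p = 0.133), and Tfb2m was not called in 8 of 12 fits without 1 library. Esrrg was also the single gene of the list called between KO CDAHFD and WT CDAHFD, at -3.71 (SE 0.56, adjusted p = 0.0118), from 0.911 to 0.0677 CPM, and was not called in 4 of 12 fits without 1 library (highest adjusted p = 0.0838). With library size alone, 1 gene of this list was lower and 2 were higher in KO chow, and 3 were lower and 1 was higher in WT CDAHFD.

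Of 15 clock genes, 2 (13.3%, beside 17.0% of all genes) were lower in KO chow and 3 (20%, beside 25.0%) in WT CDAHFD, shares below those of all genes, and none was higher. The list medians were -0.50 beside 0.00 and -1.06 beside -0.05, and none was called between KO CDAHFD and WT CDAHFD. In KO chow these were Hlf (-1.55, SE 0.41, adjusted p = 0.00966) and Clock (-0.63, SE 0.18, adjusted p = 0.0126), neither called without KO chow replicate 1 (adjusted p = 0.132 and 0.104). In WT CDAHFD they were Hlf (-1.81, SE 0.36, adjusted p = 0.00103), Per2 (-1.27, SE 0.41, adjusted p = 0.0193) and Cry2 (-1.06, SE 0.26, adjusted p = 0.00426). Per2 was not called without WT chow replicate 4 or WT CDAHFD replicate 1 (highest adjusted p = 0.0744).

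**Figure D5:**
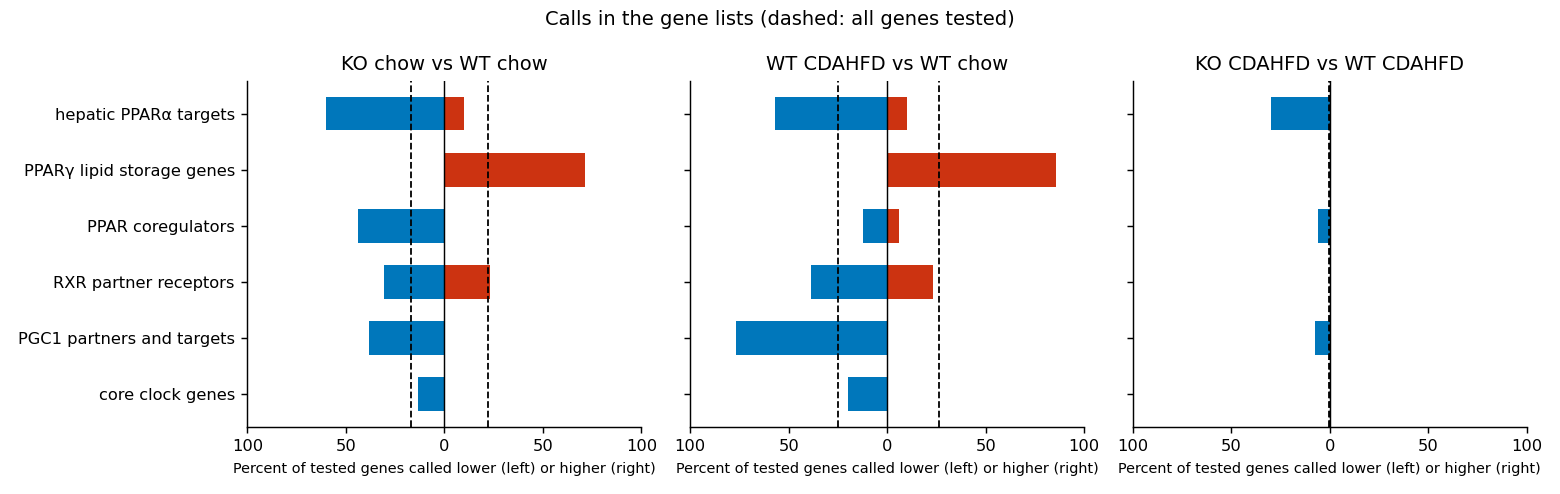
Percent of the tested genes of each list that were called lower (left of 0) or higher (right of 0) in 3 comparisons, with dashed lines for the percent over all genes tested. The PPARγ lipid storage genes have 71.4% and 85.7% higher against WT chow, the PPARα targets 60.0% and 56.7% lower, and 30% lower between KO CDAHFD and WT CDAHFD.

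Genes with the most similar pattern over the 12 libraries were named by the smallest Euclidean distance between centred and scaled log2 CPM profiles, taken over the 13365 tested genes that averaged 1 CPM or more. For Pparg these were Igsf8 (distance 0.370), Tax1bp3 (0.387) and Gm19619 (0.451), and for Ppara they were Hectd4 (0.577), Usp24 (0.635) and F830016B08Rik (0.635). Rxra was closest to Kpna6 (0.601), Sidt2 (0.629) and Naa60 (0.639), and Ppargc1b to Tfdp2 (0.689), Gpd1l (0.878) and Rnf152 (1.082). For Ppard the nearest were Alg12 (1.188), Med24 (1.200) and Zbtb7c (1.337). Rxrb had Dgat1 (1.033), 2310009B15Rik (1.131) and Pex14 (1.139). The distances were wider for Rxrg, with Cenpo (1.847), Rpl17-ps10 (1.933) and Rassf5 (1.964), and for Ppargc1a, with Gm26724 (1.785), Pnpla2 (1.81) and Ctdspl2 (1.83). None of the 8 was among the nearest genes of another. Zbtb7c shared the high WT chow replicates 1 and 2 of Ppard, with 27.1 and 10.1 CPM beside 1.37 and 3.35 CPM in replicates 3 and 4.

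The stretches before the start sites were read for 7 of the 8 genes, with 12 entries in a RefSeq table on GRCm38.p6 that holds 32851 promoters. The windows are the 250 bases upstream of each start. Shown are the first Rxra start, of a gene that fell in both comparisons, and the third of 3 Pparg starts, of the gene that rose, since neither window touches an annotated exon of its gene. Both windows lie inside the gene spans given above, which come from GENCODE and begin before these RefSeq starts. Capitals mark CG pairs, the sites of DNA methylation.
Rxra, chr2:27676951-27677200, plus strand: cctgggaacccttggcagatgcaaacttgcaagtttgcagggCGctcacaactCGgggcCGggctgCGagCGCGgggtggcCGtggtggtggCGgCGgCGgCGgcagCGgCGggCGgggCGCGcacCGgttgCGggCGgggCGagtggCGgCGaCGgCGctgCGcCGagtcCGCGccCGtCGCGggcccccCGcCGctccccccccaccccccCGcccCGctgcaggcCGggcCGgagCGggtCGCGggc
Pparg, chr6:115421816-115422065, plus strand: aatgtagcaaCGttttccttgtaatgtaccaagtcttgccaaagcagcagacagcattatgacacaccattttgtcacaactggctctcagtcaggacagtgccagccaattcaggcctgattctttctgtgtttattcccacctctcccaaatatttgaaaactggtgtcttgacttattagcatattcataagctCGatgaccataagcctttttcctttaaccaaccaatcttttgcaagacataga
The first Rxra window held 40 CG pairs, and 98.9% of all windows held as many or fewer. The window of the second Rxra start held 1, and 18.8% of all windows held as few or fewer. The third Pparg window held 2, while the windows of the first and second Pparg starts held 38 and 12, beside a median of 6 over all promoters. Ppara held 27 and Ppard 22, and the single Ppargc1a window held 5. The counts sum reads over all starts of a gene, so which Pparg start was used was not measured.

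Letters bound by clock factors and by PPAR-RXR were then searched on both strands. The E-box CACGTG was in none of the 12 windows, beside 6.02% of all promoters. The DR1 element of PPAR-RXR, AGGTCA repeated after 1 free base, was in none, beside 0.0335%. The single half-site AGGTCA, which is also part of that pair, was in 4 windows, beside 14%, namely the first and second of Pparg, the second of Rxra and the second of Rxrg. A match is a run of letters and not a measured site.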

How the data were processed

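The authors purified poly-A RNA, made non-directional libraries and sequenced them on an Illumina NovaSeq. Reads were checked with FastQC 0.11.5 and aligned to GRCm38 with STAR 2.7.3a, per the submitters' processing notes. The counting program and the annotation are not given in the sources used here. The authors deposited 1 table of raw read counts per Ensembl gene, without normalization, for all 12 libraries. Each library was mapped to its group by its title, and no column was left without a sample. The study's methods describe libraries from separate mice, and each library carries its own number in the labels.

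Symbols, positions and exon lengths came from GENCODE M21, which held 94.08% of the identifiers and 99.691% of the counts. Counts were analysed in R 4.3.3 with edgeR 4.0.16 (filterByExpr by group, TMM, glmQLFit with legacy settings, glmQLFTest), with a mean for each of 4 groups over all 12 libraries. DESeq2 1.42.0 was an alternative, and tables and figures used Python 3.11.15, pandas 2.3.3 and matplotlib 3.10.9. SEs are the log2 fold change divided by the square root of F. No 2 libraries were identical, and the closest pair differed by a chi-square of 19.79 per degree of freedom. On simulated counts over 17358 genes, 63% of changes of 1 on the log2 scale and 98% of changes of 2 were recovered for KO chow against WT chow, and 87% and 100% for WT CDAHFD, with 11 false calls in each. The simulation gave each gene the spread typical of its level, without a clock difference within groups. Its rates therefore do not measure recovery for genes of wider spread, such as Ppard, which varied 9.72-fold within WT chow.

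The 8 genes, the lists and the tests were chosen with earlier results of these data known. By rule, all 8 genes are named, from each list up to 2 called genes with the largest increase and up to 2 with the largest decrease per comparison with WT chow, and the 3 genes nearest in pattern to each member. Other list genes, where 5 or fewer were called, were named after their values were seen. Alternatives were DESeq2, other scalings and filters, leaving out each library, a replicate block, the clock score as a covariate, fits of the compared groups alone and, added after seeing the data, the libraries with a clock score of 0 or less. Intervals and depth limits cover counting error only.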

Additional observations from a re-analysis of the deposited data

Results flagged for a closer look

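The diet effect differed between the genotypes for both Pparg and Rxra by the interaction test. The log2 difference of KO minus WT was -2.08 for Pparg and 0.90 for Rxra, with the diet effects of KO and WT mice given above. Vdr stood out for the spread of a very low count in WT chow, where its highest library had 0.0776 CPM, from 2 counts, and the other 3 had none. A single library can stand apart in this way by chance, and no cause was tested.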

How the results depend on the processing

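Counts of the 8 genes called were at 3 in both comparisons with WT chow and within 1.5 times of that under each alternative run. The genes behind a count could change. With library size only, the 3 called in WT CDAHFD were Pparg, Rxrb and Ppargc1a, all higher, in place of Pparg, Ppara and Rxra. For KO CDAHFD against WT CDAHFD, 1 gene was called in place of 0 with the clock score as a covariate and in the libraries with a score of 0 or less. For KO chow against WT CDAHFD, 1 was called in place of 0 with DESeq2, with no filter, with the clock score, with the low-score libraries and with the compared groups alone. The interaction count of 2 became 1 with library size only and 1 with the replicate block, where Rxra was not called (0.73, adjusted p = 0.0552), 4 with the clock score and 4 with the low-score libraries, and ran from 1 to 3 without 1 library. With library size only, KO chow against WT chow turned for Rxrb (0.15), Rxrg (0.36), Ppargc1a (0.13) and Tfb2m (0.07), and WT CDAHFD against WT chow for Rxrb (0.29), Med1 (0.11) and Sirt1 (0.22), none of them but Rxrb called. On the diet, Rxrg turned with the block (-0.0011) and with the low-score libraries (-0.02), and Ppargc1b with the latter (0.10). Without 1 library, Rxrg ran from -0.20 to 0.26 in KO chow and from -0.04 to 0.44 on the diet, Ppargc1a from -0.66 to 0.03 in KO chow, and Ppara from -0.06 to 1.33 between KO CDAHFD and KO chow. The cause was not tested. The alternative values compared 1 by 1 covered the 8 genes in both comparisons with WT chow, Ppara in every contrast, and Pparg and Rxra in the interaction. Among these 459 values, 415 kept direction and side of the threshold, 7 lost a call, 23 gained one and 14 turned. Replicate numbers did not pair the libraries, since 3 of 15 pairs of the same number deviated together with r over 0.1 (range -0.242 to 0.266) and 4 of 12 libraries correlated best with their own number. With the block, calls over all genes in KO CDAHFD against KO chow went from 1075 to 640. That count was 1903 with DESeq2, 1667 with the clock score, 600 with the low-score libraries and 581 with the compared groups alone. Calls over all genes in KO CDAHFD against WT CDAHFD went from 62 to 245 with DESeq2, 215 with no filter, 168 with the clock score, 113 with the low-score libraries and 154 with the compared groups alone. In KO chow against WT CDAHFD they went from 1063 to 2030 with DESeq2, 2563 with the clock score, 2680 with the low-score libraries and 1985 with the compared groups alone. Without 1 library the 3 counts ran from 233 to 1437, 26 to 75 and 260 to 1469 in that order, and the 6763 calls of KO chow against WT chow fell to 4320 without KO chow replicate 1. With library size only, the share of calls that were higher went from 60.7% to 90% in KO CDAHFD against KO chow, from 44.2% to 19.1% in KO chow against WT CDAHFD and from 37.3% to 13.7% in the interaction, and with DESeq2 from 24.2% to 46.5% in KO CDAHFD against WT CDAHFD. Dividing by the longest transcript in place of all exons raised Ppard in WT chow from 4.66 to 9.40 CPM per kb and Rxrb from 12.6 to 19.1. KO chow had 2 libraries and the lowest of the 8 genes, Ppargc1b, as few as 39 counts, which limits what could be called.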
